A study of Mus musculus with 10 samples.

Results

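Mouse embryonic stem (ES) cells of the line CGR8, from strain SV129, were differentiated with or without EBIO, and their RNA was measured on Affymetrix arrays. EBIO is a small molecule applied as an opener of potassium channels that respond to calcium, those of intermediate and small conductance. The cells had spent 5 days as embryoid bodies, floating clumps in which ES cells begin to form many cell types, and then 10 further days in culture. The 4 arrays compared are all those of differentiated cells among the 10 arrays of the series, 2 from cultures without EBIO and 2 from cultures that received EBIO for those 10 days. The other 6 arrays are undifferentiated ES cells, 3 untreated and 3 treated with 1 mM EBIO for 3 days, and enter only where named. The labels give no EBIO dose for the differentiated cells, describe no selection or sorting, and name 1 cell line for both groups. Each array is therefore read as the whole mixed culture, which the labels do not state. Both samples of a group are independent experiments according to the design text. The title names calcium-activated potassium channels, heart cell formation and pacemaker-like cells as the subject, and the question of this comparison is what 10 days of EBIO left changed in the differentiated cultures across all measured genes.

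A heart muscle cell contracts when calcium enters through membrane channels, releases more calcium from the sarcoplasmic reticulum and lets myosin thick filaments pull on actin thin filaments in the sarcomere. Embryoid bodies form such cells beside fibroblasts, macrophages, endothelium, epithelia and cells of the visceral endoderm, and each type brings its own set of transcripts to a bulk RNA sample. Calcium-activated potassium channels let potassium leave the cell when calcium rises, which moves the membrane voltage towards rest.

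Values are the authors' log2 RMA values, in which 1 unit is a 2-fold change. The array medians were 5.66 and 5.68 without EBIO and 5.62 and 5.59 with it, and values under them are compressed, so a difference that starts or ends there is understated. Arrays of the same group correlated at 0.997 over all probe sets, and arrays of different groups at 0.950 to 0.954. The 3′ minus 5′ difference of the Actb control probe sets was 0.40 to 0.48 on all 4 arrays, so this sign of RNA quality did not follow the groups. In a bulk sample, fewer cells of a type and less RNA per cell cannot be told apart. The defining markers of heart muscle were 9 of 9 higher with EBIO, with a mean log2 value over the 9 genes of 9.19 and 9.07 without it and 12.30 and 12.33 with it. The 8 fibroblast and 8 macrophage markers were all lower. All 8 macrophage markers lay under the array medians with EBIO, as did 5 of 6 endothelial markers. Genes were tested only if they exceeded the array median on at least 2 of the 4 arrays. A marker that passed through the control arrays alone therefore had to be lower, and its direction is a description. Of all genes tested, 33.3% were called higher and 32.6% lower. The 5 skeletal muscle markers lay under the medians in both groups. The part of such shifts between cell types in the single-gene results that follow was not tested.

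Of 18193 named genes, 12330 exceeded the array median on at least 2 of the 4 arrays and were tested. With limma and an adjusted p threshold of 0.05, 4110 genes were higher with EBIO (33.3% of those tested) and 4022 were lower (32.6%). At least 2-fold changes were less even, with 778 genes higher (6.31%) and 1533 lower (12.4%). The split over all calls moved with the scaling: with arrays centred on their medians 4683 genes were higher and 3607 lower, and after cyclic loess 3362 and 4683. At least 2-fold falls outnumbered rises under both, 1438 against 878 and 1668 against 645. The imbalance grew with size: 170 genes were higher and 656 lower by at least 4-fold, 63 and 325 by at least 8-fold, and 16 and 154 by at least 16-fold. Past 64-fold there was 1 rise and there were 28 falls. The median difference over all tested genes was 0.02 and the median absolute difference was 0.39, against a median SE of 0.08 and a median SD between arrays of 0.07 without EBIO and 0.06 with it. The arrays of the 2 groups did not overlap for 10409 genes (84.4%), and for 1181 genes (9.58%) the 95% interval of the difference lay within 1.2-fold in both directions.

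**Figure D1:**
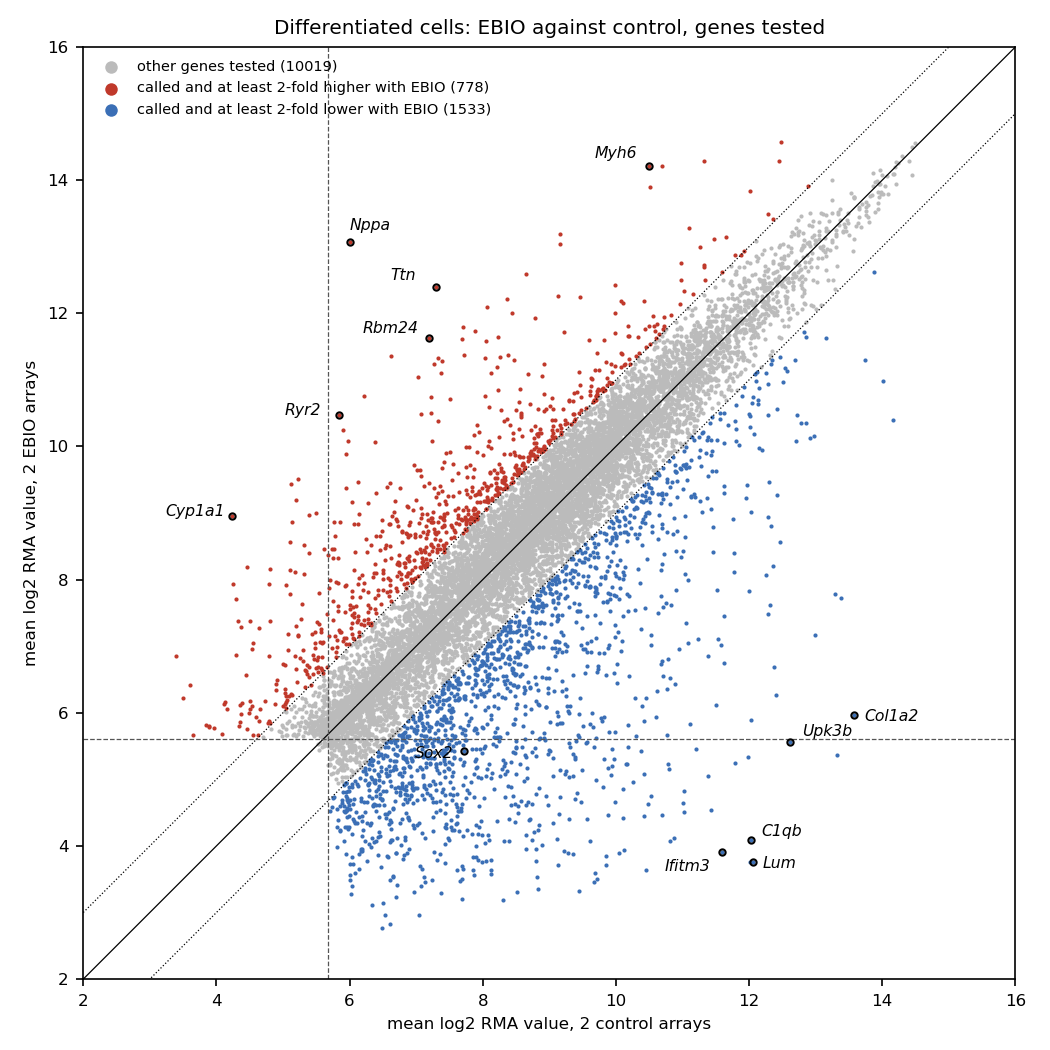
Mean log2 RMA value of each of the 12330 genes tested on the 2 control arrays (horizontal axis) and on the 2 EBIO arrays (vertical axis), with equal values on the solid line, 2-fold differences on the dotted lines and the mean array medians as dashed lines. The 1533 falls (blue) spread farther from the line than the 778 rises (red), and many of them end under the dashed line of the EBIO arrays.

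How far a change could be measured differed by direction. Of the 778 rises of at least 2-fold, 126 began under the control array medians, and of the 1533 falls, 636 ended under the EBIO array medians. Where both group means lay above the lowest array median, 656 rises and 900 falls remained. The largest differences of all were falls that ended in the dim range: Lum (-8.30), a small proteoglycan of collagen fibrils, Lyz1 (-8.26), a lysozyme of macrophages, C1qb (-7.95), a chain of complement C1q, Saa3 (-7.95), an acute phase protein, and Ifitm3 (-7.70), an interferon-induced membrane protein. Lum measured 11.92 and 12.19 on the control arrays and 3.63 and 3.88 on the EBIO arrays, and its true fall may be larger.

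The largest changes were ranked among called genes whose groups did not overlap and whose group means both lay above the lowest array median. This rule leaves out rises from the dim range such as Cyp1a1 (4.72), a cytochrome P450, and Xirp1 (4.29), an actin-bundling protein. The largest rise was that of Nppa, which encodes atrial natriuretic peptide. It measured 5.95 and 6.06 on the control arrays and 13.11 and 13.03 on the EBIO arrays, a difference of 7.06 (SE 0.08, adjusted p = 1.5e-06). Both EBIO arrays were high and the groups were far apart. Ttn, the giant spring protein of the sarcomere, measured 7.33 and 7.26 without EBIO and 12.38 and 12.41 with it, and Ryr2, the calcium release channel of the sarcoplasmic reticulum, measured 5.88 and 5.80 on the control arrays and 10.45 and 10.48 on the EBIO arrays. The differences were 5.11 (SE 0.07, adjusted p = 1.5e-06) for Ttn and 4.62 (SE 0.07, adjusted p = 1.5e-06) for Ryr2. Also among the 5 largest by this rule were Myl1 (4.74), a myosin light chain best known from fast skeletal muscle, and Sphkap (4.54), an anchor for protein kinase A. They were followed by Rbm24 (4.44), a muscle splicing regulator, Kcnj5 (4.34), a potassium channel subunit opened by G proteins, and Cited1 (4.11), a transcriptional cofactor. Pln (4.08), the brake on the calcium pump, Tnnt1 (4.04), slow skeletal troponin T, Ankrd1 (4.04), a stretch-responsive muscle protein, and Cacna2d2 (4.01), an auxiliary calcium channel subunit, completed the 12 largest by this rule. Cited1 was the least even of them, at 5.69 and 6.27 on the control arrays and 10.20 and 9.97 on the EBIO arrays.

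Collagen genes led the falls ranked by the same rule. Col1a2, a chain of type I collagen, measured 13.68 and 13.48 on the control arrays and 5.80 and 6.14 on the EBIO arrays, a difference of -7.61 (SE 0.13, adjusted p = 1.6e-06). Its partner chain gene Col1a1 measured 13.09 and 12.90 without EBIO and 7.11 and 7.24 with it, a difference of -5.82 (SE 0.09, adjusted p = 1.6e-06). On the EBIO arrays Col1a2 lay near the array medians and Col1a1 above them. Serping1 (-6.15), the inhibitor of complement C1, Ccdc80 (-6.14), a secreted matrix protein, Lox (-5.69), which crosslinks collagen, and Dcn (-5.66), the proteoglycan decorin, followed. The rest of the 12 largest falls by this rule were Selenop (-5.51), a selenium carrier, Angptl7 (-5.38), a secreted angiopoietin-like protein, Emp3 (-5.28), a small membrane protein, Dhrs3 (-5.10), which reduces retinaldehyde to retinol, and the collagen chains Col6a2 (-4.87) and Col5a2 (-4.80).

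Most large changes lay outside the 90 gene lists used here. Of 10842 tested genes in no list, 614 were higher (5.66%) and 1124 lower (10.4%) by at least 2-fold. These shares are close to those of all genes tested, most of which are in no list. The 1488 tested genes in a list, chosen with earlier results of these data known, held 164 of the rises and 409 of the falls. By the same rule, several of the largest rises outside the lists were of proteins of the contractile apparatus or its actin: Tmod1 (3.41), which caps thin filaments at their pointed ends, Fhod3 (3.20), a formin of the sarcomere, and Cap2 (3.54), an actin-recycling protein. Sh3bgr, a small protein known from heart and skeletal muscle, measured 8.69 and 8.62 on the control arrays and 12.47 and 12.71 on the EBIO arrays, a difference of 3.93 (SE 0.10, adjusted p = 3e-06). Other rises were those of Ppp1r14c (3.67), an inhibitor of protein phosphatase 1, Uchl1 (3.29), a ubiquitin hydrolase abundant in neurons, Slc9a7 (3.10), a sodium-proton exchanger, Rragd (3.002), a Rag GTPase that signals nutrients to mTOR, and Pcp4l1 (3.30). Rec114, a gene of meiotic recombination, measured 7.04 and 7.10 without EBIO and 10.46 and 10.53 with it, a difference of 3.43 (SE 0.07, adjusted p = 1.9e-06).

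Falls outside the lists included Tgm2 (-4.70), a transglutaminase that crosslinks proteins, Ptgis (-4.67), prostacyclin synthase, Clca3a1 (-4.65), a chloride channel accessory protein, and Antxr1 (-4.30), a collagen-binding receptor. Ptprv (-4.36), a receptor phosphatase, Fcgrt (-4.28), the neonatal Fc receptor, Emp1 (-4.22), a relative of Emp3, and Crip1 (-3.91), a LIM protein, fell as well. Ptprv was the least even, at 10.20 and 10.17 on the control arrays and 6.13 and 5.51 on the EBIO arrays.

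**Figure D2:**
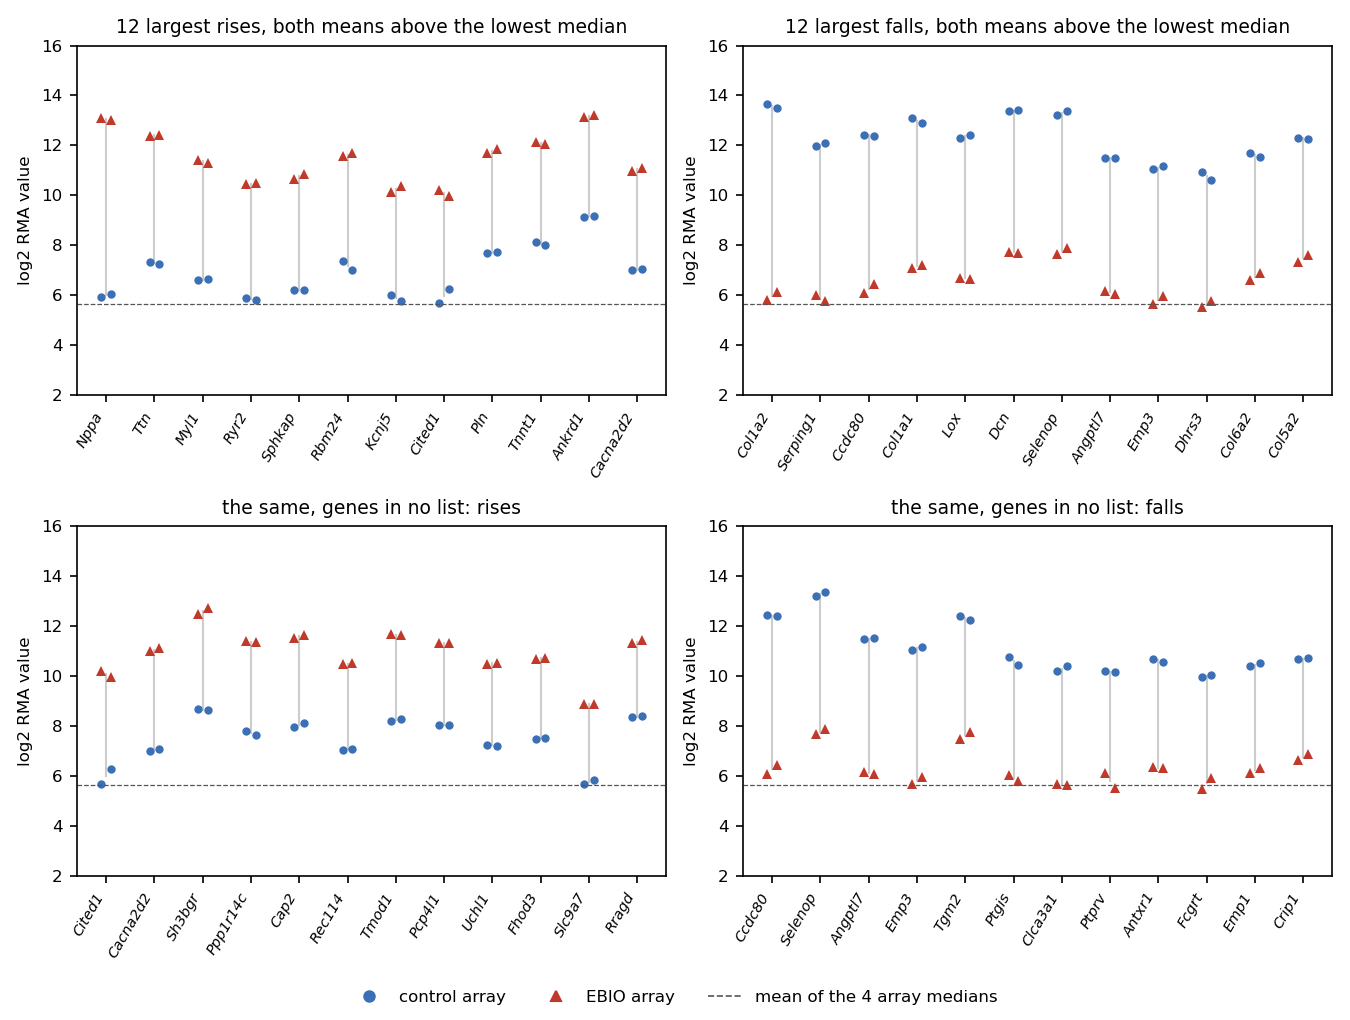
Log2 RMA value on each control array (circles) and each EBIO array (triangles) for the 12 largest rises and falls among called genes with both group means above the lowest array median, and for the 12 largest of those in no list, with the mean of the 4 array medians as a dashed line and grey bars joining the group means. In all 4 panels the 2 arrays of a group lie close together. That the groups do not overlap was a condition of the ranking.

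The 90 lists, sorted by median, ran from the thick filament (3.01) to macrophage genes (-4.62), beside a median of 0.02 for all genes tested. Counts over a list cover its tested members only, and a member that passed the filter through 1 group alone had to differ, so they describe those members and not the whole list. They are to be read beside the 33.3% of all genes tested that were called higher and the 32.6% called lower.

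**Figure D3:**
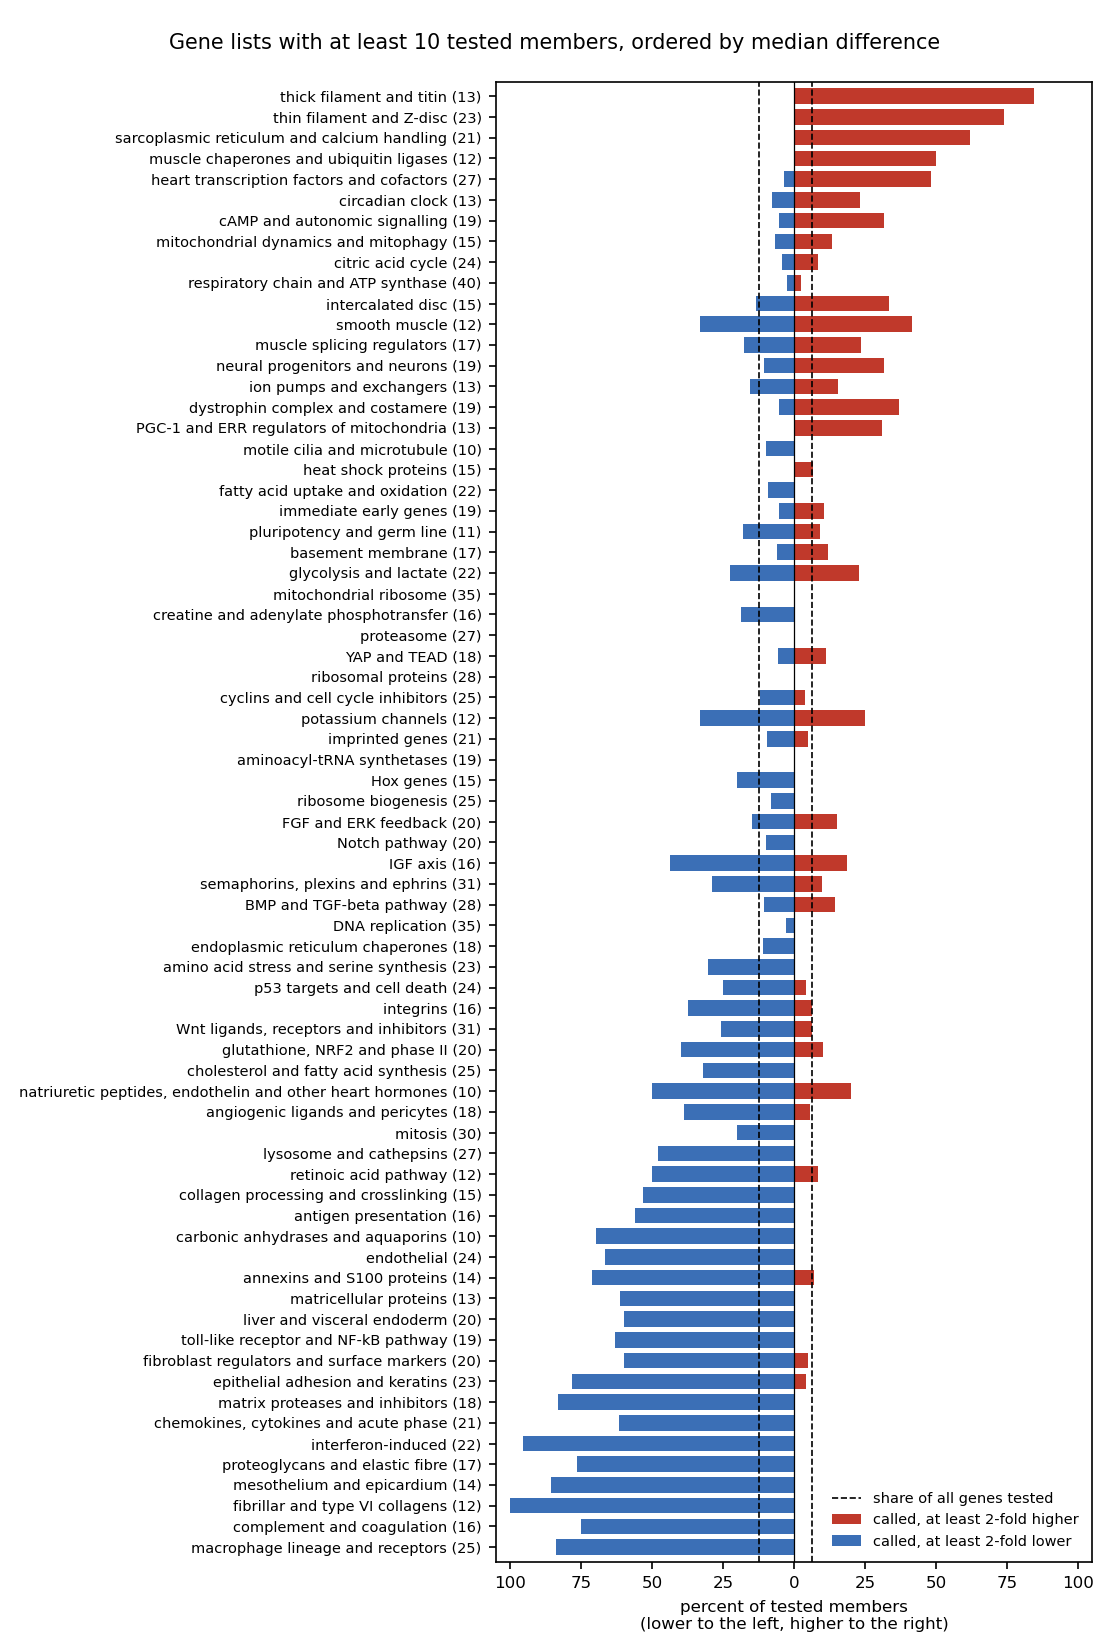
Share of tested members called and at least 2-fold higher (red, to the right) or lower (blue, to the left) in each list with at least 10 tested members, with the number tested in brackets and the shares among all genes tested (6.31% and 12.4%) as dashed lines. The thick filament, thin filament and calcium handling lists are red only, and the collagen, proteoglycan, macrophage and interferon lists blue only. The smooth muscle and glycolysis lists have both colours, and the ribosomal protein, proteasome and tRNA synthetase lists have no bar.

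Sarcomere genes rose together, with a few exceptions at the Z-disc. All 13 tested members of the thick filament list (15 genes) were higher and 11 of them by at least 2-fold. Of 23 thin filament and Z-disc genes tested (26 in the list), 20 were higher, 17 of them by at least 2-fold, and 3 were lower. Myh6, the atrial and fast myosin heavy chain, measured 10.69 and 10.31 on the control arrays and 14.16 and 14.25 on the EBIO arrays, a difference of 3.71 (SE 0.14, adjusted p = 9.4e-06), and its slower partner Myh7 differed by 3.13. The atrial light chain genes Myl4 and Myl7 rose by 2.97 and 2.10, and the ventricular ones Myl3 and Myl2 by 1.33 and 0.85; these changes were not tested against each other. Mybpc3 (3.56), myosin-binding protein C, and Myom1 (3.73), of the M-band, were also higher. In the thin filament, Xirp1 (4.29), an actin-bundling protein, Actn2 (3.92), the Z-disc actinin, Tnni3 (3.88), cardiac troponin I, and Ldb3 (3.85) led the rises. Des (-0.32), the intermediate filament desmin, Fhl2 (-0.64), a LIM cofactor, and Myoz2 (-0.89), a calcineurin-binding Z-disc protein, fell.

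Promoters of these lists were searched for the CArG box (the motif bound by serum response factor), the MEF2 site and the TATA box, since these motifs recur in muscle promoters. RefSeq windows from 250 bases before to 50 after each start (build GRCm38.p6) were read on both strands, and a gene counted once if any of its windows held the motif. A CArG box lay in 3 of 13 thick filament genes (23.1%) and in 5 of the 20 thin filament genes with a window (25.0%), beside 1.81% of all 27025 genes in the promoter table. A MEF2 site lay in 2 of the 13 and 3 of the 20, beside 3.70% of all genes. TATAAA, whose letters can overlap a MEF2 site, lay in 2 and 4, beside 15.7%. The 8 CArG matches are shown with 50 bases of upstream sequence, 5′ to 3′ on the gene's strand, the match in capitals, because their genes include rises of all sizes and 1 fall.
Ldb3, chr14:34588687-34588736, - strand: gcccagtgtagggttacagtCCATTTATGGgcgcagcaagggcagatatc
Myom1, chr17:71019438-71019487, + strand: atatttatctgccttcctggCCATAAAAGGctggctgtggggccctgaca
Nebl, chr2:17462989-17463038, - strand: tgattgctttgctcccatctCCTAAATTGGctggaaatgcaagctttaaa
Myl7, chr11:5898814-5898863, - strand: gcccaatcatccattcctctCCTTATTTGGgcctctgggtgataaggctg
Actc1, chr2:114052893-114052942, - strand: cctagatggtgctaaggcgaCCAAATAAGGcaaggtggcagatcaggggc
Myl3, chr9:110763573-110763622, + strand: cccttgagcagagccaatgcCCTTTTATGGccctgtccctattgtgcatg
Acta1, chr8:123894819-123894868, - strand: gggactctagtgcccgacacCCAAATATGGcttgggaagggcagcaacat
Fhl2, chr1:43196828-43196877, - strand: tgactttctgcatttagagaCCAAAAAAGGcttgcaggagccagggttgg
The matches began 35 to 162 bases before the start. Their genes changed by 3.85 (Ldb3), 3.73 (Myom1), 3.53 (Nebl), 2.10 (Myl7), 1.83 (Actc1, cardiac actin), 1.33 (Myl3), 1.25 (Acta1, skeletal actin) and -0.64 (Fhl2). A match is a string of letters in the reference, not a measured binding site, and the largest rise of the list, Ttn, had a MEF2 match but no CArG match in these windows.

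Genes of calcium release and uptake were mostly higher. In this list 14 of 21 tested genes rose, 13 of them by at least 2-fold, and 3 fell. After Ryr2 and Pln, the largest rises were those of Slc8a1 (3.04), the sodium-calcium exchanger, Jph2 (2.98), which ties the reticulum to the cell membrane, and Cacnb2 (2.76), a subunit of the L-type calcium channel. The pore gene of that channel, Cacna1c, rose by 1.71 and the calcium pump gene Atp2a2 by 0.58. The calcium store proteins did not follow. Casq2, cardiac calsequestrin, measured 6.36 and 6.16 on the control arrays and 6.11 and 5.99 on the EBIO arrays, a difference of -0.21 (adjusted p = 0.097), Trdn, which links it to the release channel, differed by 0.01 (adjusted p = 0.95), and Casq1 (-0.36) and Sri (-0.68), which encodes sorcin, fell.

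In the intercalated disc list 10 of 15 tested genes were higher, 5 of them by at least 2-fold, and 3 were lower. Dsp (2.05), desmoplakin, Ctnna3 (1.89), Cdh2 (1.48), N-cadherin, and Pkp2 (1.21) were higher. Gja1, the main gap junction gene of ventricular muscle, measured 12.51 and 12.32 on the control arrays and 10.66 and 10.47 on the EBIO arrays, a difference of -1.85 (SE 0.11, adjusted p = 4.4e-05), and Gjc1, a connexin gene of the conduction system, rose by 0.73. The largest change of the list was the fall of Dsc2 (-2.20), a desmosomal cadherin. In the dystrophin and costamere list 8 of 19 were higher and 2 lower, beside 33.3% and 32.6% of all genes tested. Sorbs2 (3.85), an actin adaptor of the Z-disc, and Itgb1bp2 (3.58), which binds integrins in muscle, rose most, while dystrophin itself (Dmd) measured 7.54 and 7.69 on the control arrays and 7.62 and 7.71 on the EBIO arrays, with overlapping groups and a difference of 0.06 (adjusted p = 0.58).

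Channel genes split. Kcnj5 measured 6.02 and 5.79 on the control arrays and 10.13 and 10.36 on the EBIO arrays, a difference of 4.34 (SE 0.12, adjusted p = 3.5e-06), and its partner Kcnj3 rose by 1.13. Kcnh2, the channel of the rapid delayed rectifier current, rose by 2.50. Kcne3 (-3.77), an accessory subunit, Kcnk1 (-2.72), a leak channel, Kcnj8 (-1.94), an ATP-sensitive channel of vessels, and Kcna5 (-1.65) fell. Of the T-type calcium channels, Cacna1h rose by 2.19 and Cacna1g fell by 1.29 on the log2 scale. Scn3b (-3.59), a sodium channel subunit, also fell. Of the channel genes that EBIO is used to act on, none of the 3 tested had a fitted change of 2-fold. Kcnn2 came close. It measured 5.17 and 4.91 on the control arrays and 6.21 and 5.81 on the EBIO arrays, a difference of 0.97 (SE 0.16, adjusted p = 0.0027). Both its control values lay under the array medians, so the rise may be understated. Kcnn1 fell by 0.68 on the log2 scale, Kcnn4 differed by -0.10 (adjusted p = 0.28), and Kcnn3 lay too low to be tested.

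Genes of cyclic AMP signalling were higher in 13 of 19 tested. Beside Sphkap, the Popeye genes Popdc2 (3.90), Bves (2.28) and Popdc3 (1.46), whose membrane proteins bind cyclic AMP, and Rgs6 (2.51), a brake on G protein signals in the heart, rose. Adcy6 (1.05) and Prkaca (0.64), the kinase A catalytic subunit, rose less. Pde5a, a cyclic GMP phosphodiesterase, measured 8.93 and 8.66 on the control arrays and 5.52 and 5.18 on the EBIO arrays, a difference of -3.44 (SE 0.14, adjusted p = 1.5e-05).

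Among heart transcription factors and cofactors 19 of 27 were higher and 3 lower. Myocd, the coactivator of serum response factor, measured 6.08 and 5.82 on the control arrays and 9.74 and 10.04 on the EBIO arrays, a difference of 3.95 (SE 0.14, adjusted p = 8e-06). Shox2 (3.68), Isl1 (3.43) and Tbx3 (2.88), factors of the sinus node, and Prox1 (3.42), Tbx5 (3.06), Nkx2-5 (2.87) and Hopx (2.98) rose by more than 4-fold. Of factors known from early cardiac mesoderm, Gata4 rose by 0.76, Hand2 by 0.83 and Mef2c by 0.81, while Gata6 differed by 0.02 (adjusted p = 0.78) and Hand1 by 0.004 (adjusted p = 0.98). Gata5 fell by 1.68 on the log2 scale.

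Natriuretic peptide genes rose and several peptide receptors fell. Nppb, for brain natriuretic peptide, measured 7.07 and 7.46 on the control arrays and 11.30 and 11.18 on the EBIO arrays, a difference of 3.98 (SE 0.14, adjusted p = 8.4e-06). Npr3 (-2.71), the receptor that clears natriuretic peptides, Corin (-2.22), the protease that activates them, Agtr1a (-2.86), the angiotensin receptor, Ednrb (-3.78), an endothelin receptor, and Edn1 (-1.33), endothelin itself, were lower.

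Splicing regulators moved both ways. Rbm24 measured 7.37 and 7.02 on the control arrays and 11.56 and 11.71 on the EBIO arrays, and Rbm20, which controls titin splicing, measured 6.33 and 5.92 without EBIO and 9.29 and 9.63 with it. The differences were 4.44 (SE 0.13, adjusted p = 4.6e-06) for Rbm24 and 3.33 (SE 0.17, adjusted p = 2.9e-05) for Rbm20. Rbm38 (1.54) and Rbpms (1.22) also rose by more than 2-fold. The epithelial splicing regulators Esrp1 (-2.80) and Esrp2 (-1.68) fell, as did Mbnl3 (-1.28). Ptbp2, the neuronal form of a splicing repressor, rose by 0.81, and its widespread form Ptbp1 fell by 0.44 on the log2 scale. In all 9 of 17 were higher and 6 lower.

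Chaperones and ubiquitin ligases of muscle were higher in 10 of 12 tested. Asb2 (3.997), which marks filamins for degradation, Unc45b (2.32), the myosin chaperone, Hspb7 (1.92) and the atrophy ligase genes Fbxo32 (1.82) and Trim63 (1.61) rose; Hspb8 fell by 0.98 on the log2 scale. Of the skeletal muscle list 8 of 22 genes could be tested: Myl1, Tnnt1, Myh8 (1.17) and Mylpf (1.05) were higher, Actn3 (-2.12) and Tnni2 (-0.86) lower, and the myogenic factors Myod1, Myf5 and Myog were among those too dim to test. Smooth muscle genes divided, with 7 higher and 4 lower of 12. Myl9 (2.44), Cnn1 (2.33) and Acta2 (1.02) rose; Mylk (-3.12), the kinase of smooth muscle myosin, Itga8 (-3.12) and Actg2 (-2.55) fell.

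Citric acid cycle genes were higher in 23 of 24, with a median of 0.56, and only Ogdh (1.40) and Got1 (1.36) rose by at least 2-fold. Suclg2, the subunit of the GTP-making form of succinyl-CoA ligase, was the exception at 10.61 and 10.48 on the control arrays and 8.76 and 8.86 on the EBIO arrays, a difference of -1.74 (SE 0.08, adjusted p = 2.2e-05), while Sucla2, of the ATP-making form, rose by 0.56. Respiratory chain genes were higher in 33 of 40 with a median of 0.48. The muscle isoform gene Cox6a2 rose by 2.17, whereas Cox8b, another muscle isoform, fell by 1.05 on the log2 scale. Of 35 mitochondrial ribosome genes 12 were higher, beside 33.3% of all genes tested, 5 were lower, and none passed 2-fold. The regulators Esrrg (2.82), Ppargc1a (2.68) and Ppargc1b (1.54), which turn on genes of mitochondria, rose. Ppargc1a measured 5.99 and 5.38 on the control arrays and 8.31 and 8.42 on the EBIO arrays, and the EBIO arrays were the high ones. Chchd10 (1.73) and Pink1 (1.39), of the inner membrane and of mitophagy, rose and Bnip3 (-1.15) fell.

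In glycolysis 9 of 22 genes were higher and 9 lower, beside 33.3% and 32.6% of all genes tested, and the list's median was 0.05. Of the glucose transporters, the muscle and fat form Slc2a4 rose by 1.48, the widespread Slc2a1 by 0.84, and Slc2a3 fell, at 11.41 and 11.50 on the control arrays and 8.26 and 8.56 on the EBIO arrays. Of the hexokinases, Hk1 rose by 1.68 and Hk2, the form typical of muscle and fat, fell by 1.37 on the log2 scale. Pfkm, the muscle phosphofructokinase, rose by 1.36, and the liver form Pfkl differed by -0.03 (adjusted p = 0.72). Pgam2, the muscle phosphoglycerate mutase, measured 9.56 and 9.35 on the control arrays and 12.27 and 12.23 on the EBIO arrays, a difference of 2.79 (SE 0.09, adjusted p = 6.8e-06), and the widespread Pgam1 fell by 0.77. Eno3, muscle enolase, rose by 1.61. Aldoc (-3.65), the brain aldolase, fell and the muscle aldolase Aldoa differed by 0.20 (adjusted p = 0.091). Ldhb, the heart lactate dehydrogenase, rose by 0.71, Ldha fell by 0.80 and Slc16a3, which exports lactate, fell by 2.00 on the log2 scale. Glycogen genes were higher in 5 of 9, led by Ppp1r3c (2.41), which targets phosphatase to glycogen, and Gyg (1.78), the primer of glycogen.

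Fatty acid oxidation genes were higher in 10 and lower in 8 of 22, beside 33.3% and 32.6% of all genes tested, and none of the rises reached 2-fold. Hadha (0.86) and Acadl (0.70) rose; Cd36 (-2.13), the fatty acid carrier, and Acot2 (-1.24) fell. Of 25 genes that make cholesterol and fatty acids 18 fell and 3 rose. Scd1 (-2.36), a fatty acid desaturase, Insig1 (-1.16), the sterol sensor partner, Fdps (-1.11) and Lss (-1.10) fell most beside Elovl6 (-1.16). The largest falls among creatine and adenylate genes were those of Gatm (-4.15), which makes the creatine precursor, and Ampd3 (-3.99), AMP deaminase. Muscle creatine kinase (Ckm) differed by -0.07 (adjusted p = 0.45) and myoglobin (Mb) fell by 1.11 on the log2 scale.

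The aryl hydrocarbon receptor pathway, which senses dioxin-like compounds and tryptophan products, changed at its classical target. Cyp1a1, a cytochrome P450 induced by the receptor, measured 4.10 and 4.37 on the control arrays and 9.13 and 8.77 on the EBIO arrays, a difference of 4.72 (SE 0.15, adjusted p = 5.9e-06). Both control values lay under the array medians, so the rise may be understated. Cyp1b1 measured 10.07 and 10.29 without EBIO and 11.60 and 11.71 with it, and Tiparp, a feedback inhibitor, 10.53 and 10.67 on the control arrays and 11.61 and 11.65 on the EBIO arrays. They rose by 1.47 and 1.03, and Nqo1, a quinone reductase shared with the NRF2 pathway, by 0.76. The receptor gene Ahr fell by 1.01 on the log2 scale, and its partner Arnt differed by -0.07 (adjusted p = 0.6), with overlapping groups. Ahrr, Cyp1a2 and Aldh3a1 lay too low to be tested, and the other 3 of the list's 12 genes had no named probe set. The core letters of the receptor's element, GCGTG, lay within the promoter windows of 4 of the 5 tested members with a window (80.0%), beside 35.2% of all genes, Arnt among the 4. The matches of the 3 that rose are shown in capitals within 50 upstream bases on the gene's strand, where CACGC is the same element on the other strand.
Cyp1a1, chr9:57697539-57697588, + strand: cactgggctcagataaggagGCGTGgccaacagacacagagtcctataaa
Cyp1b1, chr17:79715108-79715157, - strand: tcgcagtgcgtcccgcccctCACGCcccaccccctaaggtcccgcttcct
Tiparp, chr3:65528257-65528306, + strand: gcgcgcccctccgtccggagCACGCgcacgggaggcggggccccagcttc
They began 54, 76 and 170 bases before the start.

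Genes of glutathione conjugation went the other way. Gsta3 (-4.04), Gstm2 (-4.02) and Mgst1 (-2.80), glutathione transferases, and Ephx1 (-3.99), epoxide hydrolase, fell, and 13 of the list's 20 tested genes were lower. Srxn1 (1.39) and Gclc (1.31), which sets the rate of glutathione synthesis, rose. Of 17 tested cytochrome P450 genes 3 were higher and 9 lower, Cyp7b1 (-4.06), an oxysterol hydroxylase, most.

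Most genes of the fibroblast matrix were lower, whereas basement membrane genes moved both ways. All 12 tested genes of fibrillar, type VI and associated collagens fell by at least 2-fold, with a median of -4.07. Col6a1 (-5.54) and Col6a3 (-4.94) fell most beside the type I chains, and Col3a1, which stayed bright, measured 14.02 and 14.003 on the control arrays and 11.20 and 10.76 on the EBIO arrays. In the basement membrane list 8 of 17 were higher, 3 lower and the median was 0.15. Lama2 (2.36), the muscle laminin chain, Agrn (1.10) and Col4a2 (0.997) rose, and Lama4 (-2.30), of vessels, fell. Nid1 differed by 0.04 (adjusted p = 0.71) and Lamb1 by 0.15 (adjusted p = 0.19).

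Proteoglycan and elastic fibre genes fell in 15 of 17, with a median of -3.59. Ogn (-6.20), Bgn (-5.63), Ltbp2 (-5.42) and Fbln5 (-5.26), which assembles elastic fibres, followed Lum, while Fbn2, a fibrillin of embryonic tissue, differed by 0.14 (adjusted p = 0.33). Among matricellular genes Tnc (-4.16), Tgfbi (-4.12) and Thbs2 (-3.23) fell, but the YAP targets Ccn1 (0.97) and Ccn2 (0.79) rose, as did fibronectin, Fn1 (0.29). The YAP and TEAD list was mixed, with 7 of 18 tested genes higher and 5 lower, beside 33.3% and 32.6% of all genes tested. Its median was -0.03, with Ankrd1 (4.04) and Axl (-1.34) at the ends. Matrix proteases and their inhibitors fell together: 16 of 18 were lower, Mmp2 (-3.90) and Mmp14 (-2.45) beside Timp1 (-3.71) and Timp2 (-3.35). Of the fibroblast regulators, Tcf21 (-4.96), Pdgfra (-4.29) and Osr1 (-4.19) fell and Twist1 (0.61) and Prrx2 (1.19) rose. Of the insulin-like growth factor genes Igf1 (-4.52) and the binding proteins Igfbp7 (-4.42) and Igfbp4 (-4.15) fell, while Igfbp2 (1.65) and the receptors Igf2r (1.39) and Insr (1.19) rose. Annexin and S100 genes were lower in 13 of 14, S100a4 (-4.10) most, and the exception was Anxa6 (1.06), an annexin of muscle.

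Macrophage genes fell together. Of 25 tested (28 in the list), 24 were lower, 21 of them by at least 2-fold, and the median was -4.62. Csf1r, the receptor on which macrophages depend, measured 11.85 and 12.13 on the control arrays and 5.50 and 5.15 on the EBIO arrays, and Adgre1, the gene of the F4/80 antigen, 10.86 and 11.20 without EBIO and 4.54 and 4.48 with it. Both fell from well above the medians on both control arrays to below them on both EBIO arrays. Chains of complement C1q (C1qa -6.76, C1qc -5.86) and the cathepsins Ctss (-5.69) and Ctsc (-4.50) fell with them. In the lysosome and cathepsin list 21 of 27 were lower, 13 of them by at least 2-fold, with a median of -0.88. Of the chemokines and cytokines 18 of 21 tested were lower, among them Il33 (-5.03), Ccl9 (-4.70) and Ccl2 (-4.17). Toll-like receptor pathway genes were lower in 17 of 19: Tlr13 (-3.48), Casp1 (-3.02), Tlr2 (-2.62) and the adaptor Myd88 (-2.54) by more than 4-fold, Rela (-0.50) by less than 2-fold.

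Interferon-induced genes were lower in all 22 tested of 31, 21 by at least 2-fold, with a median of -2.69. Ifitm3, which blocks virus entry, measured 11.49 and 11.71 on the control arrays and 3.89 and 3.92 on the EBIO arrays, a difference of -7.70 (SE 0.10, adjusted p = 1.5e-06). Bst2, which tethers budding virus, measured 10.69 and 11.09 without EBIO and 6.50 and 6.36 with it, a difference of -4.46 (SE 0.14, adjusted p = 6.2e-06). The control arrays were the high ones for both. Ifitm1 (-4.54), Xaf1 (-4.53), the GTPase Irgm1 (-3.29) and the RNA sensor Ifih1 (-2.81) fell, and the transcription factor Irf1 fell least (-0.94). Class I antigen presentation genes fell too: H2-K1 by 2.17, H2-D1 by 1.87, Tap1 by 1.33 and B2m by 1.21 on the log2 scale. The macrophage markers fell on the same arrays, and their part in these falls was not tested.

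The letters GAAANNGAA, part of the interferon-stimulated response element, were searched on both strands. They lay in the windows of 13 of 21 genes (61.9%), beside 9.76% of all genes. For 6 of these genes the match is printed as 50 bases on the gene's strand, with matches in capitals (TTCNNTTTC is the other strand), because adjoining matches are visible in several.
Bst2, chr8:71537567-71537616, - strand: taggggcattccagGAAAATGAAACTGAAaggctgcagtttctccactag
Irgm1, chr11:48871421-48871470, - strand: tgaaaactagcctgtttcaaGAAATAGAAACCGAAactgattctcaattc
Gbp2, chr3:142620585-142620634, + strand: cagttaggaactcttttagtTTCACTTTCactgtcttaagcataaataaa
Gbp3, chr3:142559986-142560035, + strand: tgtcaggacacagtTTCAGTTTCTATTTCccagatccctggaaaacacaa
Ifit1, chr19:34640785-34640834, + strand: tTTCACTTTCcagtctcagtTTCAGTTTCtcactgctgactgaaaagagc
Igtp, chr11:58199502-58199551, + strand: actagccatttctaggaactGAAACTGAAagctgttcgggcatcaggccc
Bst2, Irgm1 and Gbp3 held 2 overlapping matches in these 50 bases, and Ifit1 held 2 separate ones. Gbp2, Gbp3, Ifit1 and Igtp, which encode guanylate-binding and other antiviral proteins, changed by -3.12, -2.82, -2.71 and -2.67.

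**Figure D4:**
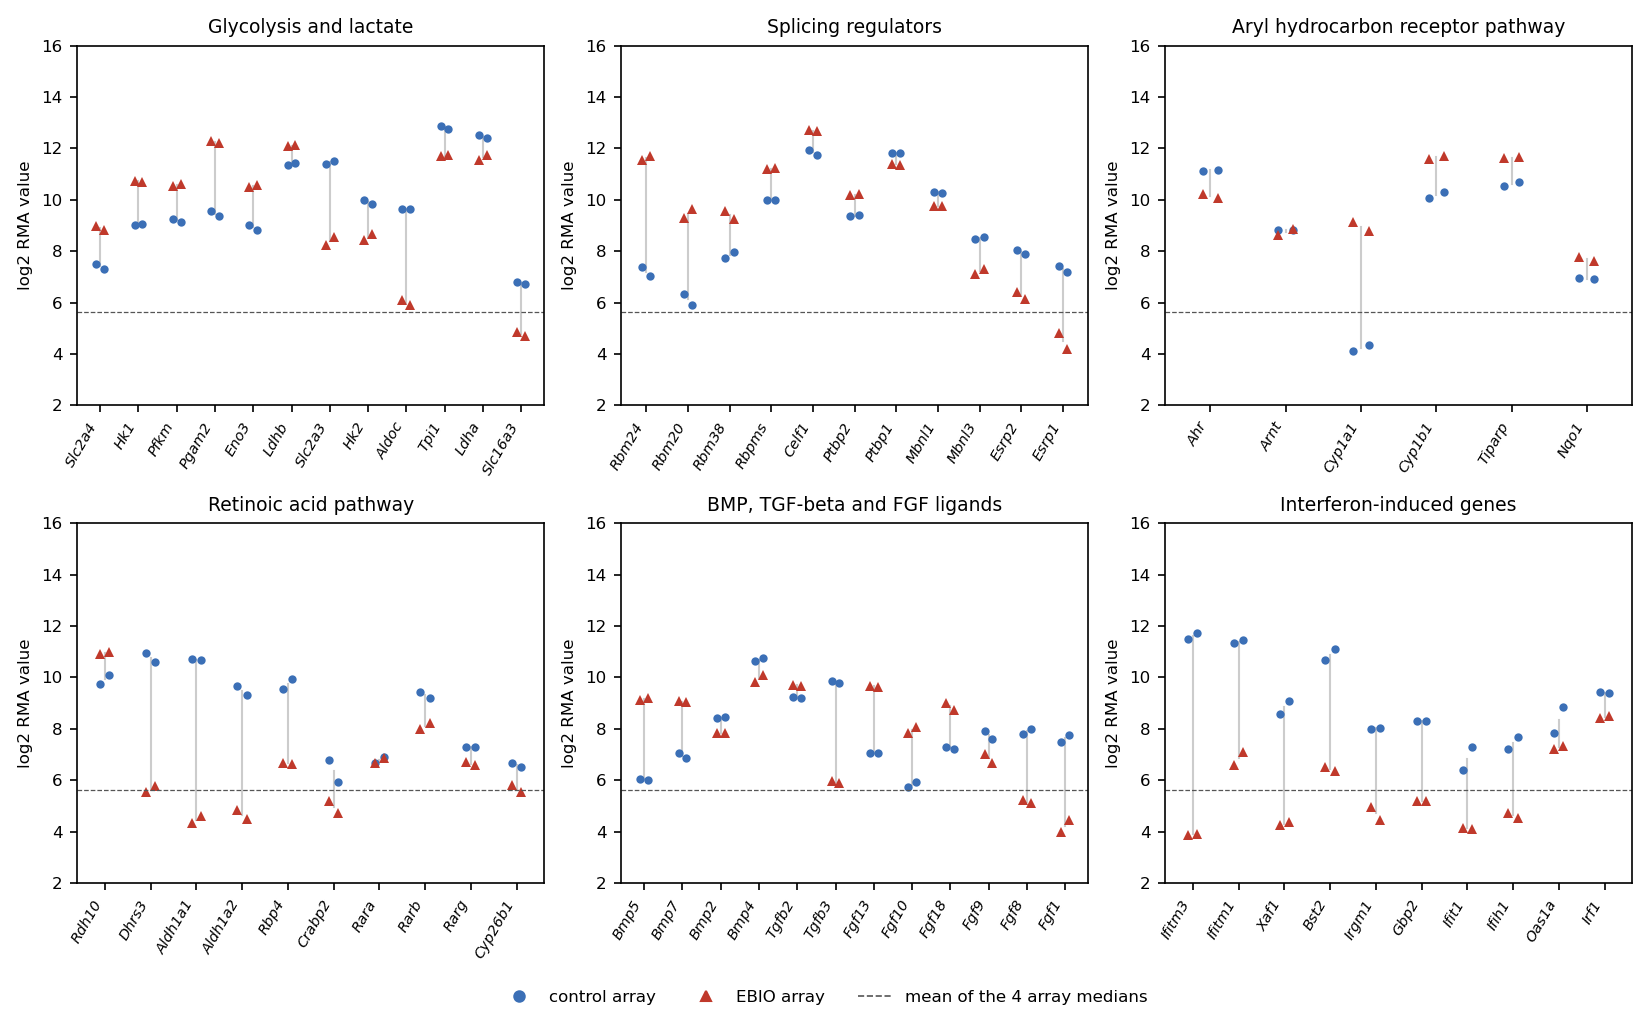
Log2 RMA value on each control array (circles) and each EBIO array (triangles) for selected members of 6 pathways, with the mean of the 4 array medians as a dashed line. In glycolysis Slc2a4, Pfkm, Pgam2 and Eno3 rise and Slc2a3, Hk2, Aldoc and Ldha fall, Cyp1a1 crosses the dashed line upwards, and Aldh1a1, Aldh1a2 and Ifitm3 cross it downwards.

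Other lineages were lower to different degrees. Endothelial genes were lower in all 24 tested of 28, with a median of -1.51; Cdh5 (-3.99), Tek (-3.99) and Emcn (-3.68) fell most and Kdr, a VEGF receptor, by 1.02. Epithelial genes were lower in 21 of 23: Krt7 (-6.34), Krt19 (-4.55) and Cdh1 (-3.46), E-cadherin, by more than 8-fold, Krt8 (-0.43) and Krt18 (-0.75) by less than 2-fold, while Grhl1 (1.69), an epithelial transcription factor, rose. Liver and visceral endoderm genes were lower in 17 of 20, Afp (-6.89) and Apoe (-4.19) most. Mesothelium and epicardium, the sheets that cover body cavities and the heart, had 13 of 14 tested genes lower (15 in the list). Upk3b, a marker of mesothelium, measured 12.62 and 12.61 on the control arrays and 5.88 and 5.25 on the EBIO arrays, a difference of -7.05 (SE 0.20, adjusted p = 4.3e-06). Msln (-4.20) and Wt1 (-1.82) fell, but Tbx18, an epicardial and sinus node factor, differed by 0.31 (adjusted p = 0.052).

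Neural genes were mixed and dim. Of 19 tested, 10 were higher and 4 lower. Pax6, a neural and eye transcription factor, measured 4.58 and 4.43 on the control arrays and 6.002 and 6.36 on the EBIO arrays; Map2 rose by 1.53, Syt1 by 1.25 and Tubb3, neuronal tubulin, by 1.24. Sox2 (-2.30), of neural and pluripotent cells, and Gap43 (-2.41) fell. Vamp2 (1.47), a vesicle fusion protein, rose and Dlg4 (-1.53), a synaptic scaffold, fell. Mitf (2.18), known from pigment cells and also from heart, rose. Of the pluripotency genes Pou5f1, Nanog and Zfp42 lay too low to be tested, and Klf2 (-1.13) fell.

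In the retinoic acid pathway, a pair of enzymes for the last step of ligand synthesis fell. Aldh1a1 measured 10.71 and 10.68 on the control arrays and 4.34 and 4.59 on the EBIO arrays, a difference of -6.23 (SE 0.10, adjusted p = 1.5e-06), and Aldh1a2 fell by 4.82 on the log2 scale; both oxidise retinaldehyde to retinoic acid. Dhrs3 measured 10.93 and 10.61 on the control arrays and 5.55 and 5.79 on the EBIO arrays, Rbp4 (-3.08), the retinol carrier, fell, and Rdh10, which makes retinaldehyde, rose by 1.02. Receptor genes moved by -1.21 (Rarb), -0.65 (Rarg) and -0.02 (adjusted p = 0.88) for Rara.

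Growth factor genes moved both ways. In the BMP and TGF-beta list 11 of 28 were higher and 15 lower. Bmp5 measured 6.05 and 6.02 on the control arrays and 9.13 and 9.19 on the EBIO arrays and Bmp7 7.05 and 6.86 without EBIO and 9.07 and 9.03 with it, differences of 3.13 (SE 0.07, adjusted p = 2.2e-06) and 2.09 (SE 0.09, adjusted p = 1.5e-05). Bmp4 (-0.73) and Bmp2 (-0.59) fell, and so did the BMP targets Id1 (-0.56) and Id3 (-0.77), while Id4 (1.10) of the same list rose. The inhibitors Nog (1.02), noggin, and Smad6 (0.60) rose. Tgfb3 (-3.89) and the receptor gene Tgfbr2 (-2.08) fell and Tgfb2 (0.49) rose. Of the FGF genes, Fgf13 (2.60), an intracellular partner of sodium channels, Fgf10 (2.13), of the second heart field, and Fgf18 (1.62) rose, and Fgf1 (-3.42) and Fgf8 (-2.74) fell.

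Of 31 Wnt pathway genes tested 18 fell and 8 rose. Secreted inhibitors led both ways, Sfrp2 (-3.94) and Dkk2 (-3.68) down and Dkk3 (1.78) up. The ligands Wnt4 (-2.21) and Wnt5a (-1.69) fell and the target Axin2 fell by 0.34 on the log2 scale. Hedgehog pathway genes were lower in 7 of 9, Gli2 (-1.35) most, and Notch1 (-1.67) and Notch4 (-1.45) fell while the ligand gene Jag1 (0.90) rose. Guidance genes included Sema3d (-4.02) and Epha3 (-2.92), which fell, and Epha7 (2.30) and Efnb2 (1.14), which rose. Of 15 Hox genes tested 2 were higher and 7 lower; Hoxc8 measured 7.09 and 7.65 on the control arrays and 3.18 and 3.39 on the EBIO arrays, a difference of -4.08 (SE 0.19, adjusted p = 2e-05), and most others changed by less than 2-fold.

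Cell cycle genes fell broadly but by little. Mitosis genes were lower in 29 of 30, only 6 of them by at least 2-fold, with a median of -0.73; Bub1b (-1.40) and Cenpa (-1.24) fell most, and Mki67 fell by 0.54 on the log2 scale. CCAAT, a motif known from mitotic promoters, lay in the windows of 20 of 26 of them (76.9%), beside 41.1% of all genes. DNA replication genes were lower in 23 of 35 with a median of -0.36. Ccnd1, cyclin D1, stood apart at 10.48 and 10.58 on the control arrays and 7.01 and 7.04 on the EBIO arrays, a difference of -3.51 (SE 0.07, adjusted p = 1.9e-06), and Ccnd2 fell by 0.20. The inhibitors Cdkn2a (-1.90) and Cdkn1a (-0.98) fell too, while Rb1 (1.203) rose.

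Stress and death genes gave a few large falls. Nupr1, a stress-induced chromatin protein, measured 10.01 and 9.59 on the control arrays and 4.93 and 4.85 on the EBIO arrays, a difference of -4.91 (SE 0.14, adjusted p = 4.6e-06). Casp8, the initiator caspase of death receptors, measured 8.96 and 9.15 without EBIO and 5.12 and 4.97 with it, a difference of -4.01 (SE 0.10, adjusted p = 2.8e-06), and Casp12 (-2.61), Pmaip1 (-1.93) and Fas (-1.82) fell as well. Of 15 heat shock genes 6 were higher, only Hsf2 (1.21) by 2-fold, and Hspa8 differed by 0.17 (adjusted p = 0.17). Chaperones of the endoplasmic reticulum were lower in 12 of 18, Pdia6 (-1.18) and Xbp1 (-1.12) by at least 2-fold. The clock genes Nr1d2 (1.87), Per3 (1.60) and Hlf (1.33) rose and Bhlhe40 (-1.11) fell. Of the imprinted genes 3 of 21 were higher and 8 lower, beside 32.6% of all genes tested, with Peg10 (2.64) and Dcn as the extremes.

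Most lists of basic cell upkeep held no large change. No tested gene for ribosomal proteins (28), aminoacyl-tRNA synthetases (19), the proteasome (27) or the mitochondrial ribosome passed 2-fold. Their medians were -0.12, -0.17, -0.02 and 0.02, and 10 ribosomal protein genes and 8 synthetase genes were called lower, beside 32.6% of all genes tested. Of 25 ribosome biogenesis genes 11 were lower, beside the same 32.6%, and 3 were higher. In that list Dkc1 (-1.39) and Gar1 (-1.01) fell by at least 2-fold.

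Families were also read over all tested genes by the stem of the symbol, a grouping made after the values were seen. Their counts are to be read beside the shares of all genes tested, 6.31% higher and 12.4% lower by at least 2-fold. Serpins, most of them protease inhibitors, were lower by at least 2-fold in 10 of 15 and higher in 1, Serpini1 (1.87), the neuronal serpin. Serpina3n fell by 3.83 on the log2 scale. Surface antigens with a CD symbol were lower by at least 2-fold in 21 of 37 and higher in 2, Cd24a (1.36) and Cd320 (1.195), a receptor for vitamin B12 uptake. Subunits of protein phosphatase 1 were higher by at least 2-fold in 6 of 30 and lower in 1: Ppp1r1a (2.63), an inhibitor controlled by protein kinase A, and Ppp1r3d (2.23), which binds glycogen, rose beside Ppp1r14c and Ppp1r3c, and Ppp1r14a (-2.53), known from smooth muscle, fell. Kinesins, which carry cargo along microtubules or act in mitosis, rose by at least 2-fold in 4 of 29, Kif5c (1.97), Kif1b (1.43), Kif1a (1.36) and Kif13a (1.17), all of the cargo-carrying kind, and Kif26b (-1.27) fell. Zinc finger genes named Zfp were steadier than the whole, with 6 of 257 higher (2.33%) and 11 lower (4.28%) by at least 2-fold. Solute carriers followed the whole, with 12 of 209 higher (5.74%) and 29 lower (13.9%): Slc22a17 (2.61) and the inositol transporter Slc2a13 (1.86) rose, and Slc9a9 (-3.84), Slc15a3 (-3.22) and Slc7a9 (-3.10) fell. Of 24 forkhead factors 1 rose (4.17%) and 4 fell (16.7%) by at least 2-fold, near the shares of all genes tested. The pair Foxc1 (1.47) and Foxc2 (-2.85) moved in opposite directions. In ABC transporters Abca9 (-4.49) and the cholesterol exporter Abca1 (-2.54) fell.

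Probe sets of 1 gene that were called and past 2-fold nearly always moved in the same direction. Of 5452 genes with at least 2 tested probe sets, 713 had at least 2 that were called and past 2-fold. Genes in which only 1 probe set passed are left out, so agreement in size was not tested. Of the 713 genes, 710 (99.6%) moved in 1 direction. The 3 exceptions were Tpm3, which makes a tropomyosin of slow muscle and a cytoskeletal one, Speg, a kinase with a long striated muscle form and a short smooth muscle form, and Mtm1, myotubularin. For Tpm3, probe set 1449996_a_at measured 5.77 and 5.70 on the control arrays and 7.16 and 7.30 on the EBIO arrays, a rise of 1.49 (SE 0.09, adjusted p = 5.8e-05), and probe set 1427567_a_at measured 10.15 and 10.16 against 9.02 and 9.04, a fall of 1.13 on the log2 scale. For Speg, 1425968_s_at rose by 1.18 and 1417305_at fell by 1.26 on the log2 scale (SE 0.11), from 8.41 and 8.64 to 7.19 and 7.36. For Mtm1, 1416934_at rose by 1.03 and 1434278_at fell by 1.40 on the log2 scale, with control values of 8.38 and 7.80 in the second. The files do not say which transcript form each probe set reads. Of 2340 tested probe sets with no or several gene symbols, 147 (6.28%) were higher and 167 (7.14%) lower by at least 2-fold.

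**Figure D5:**
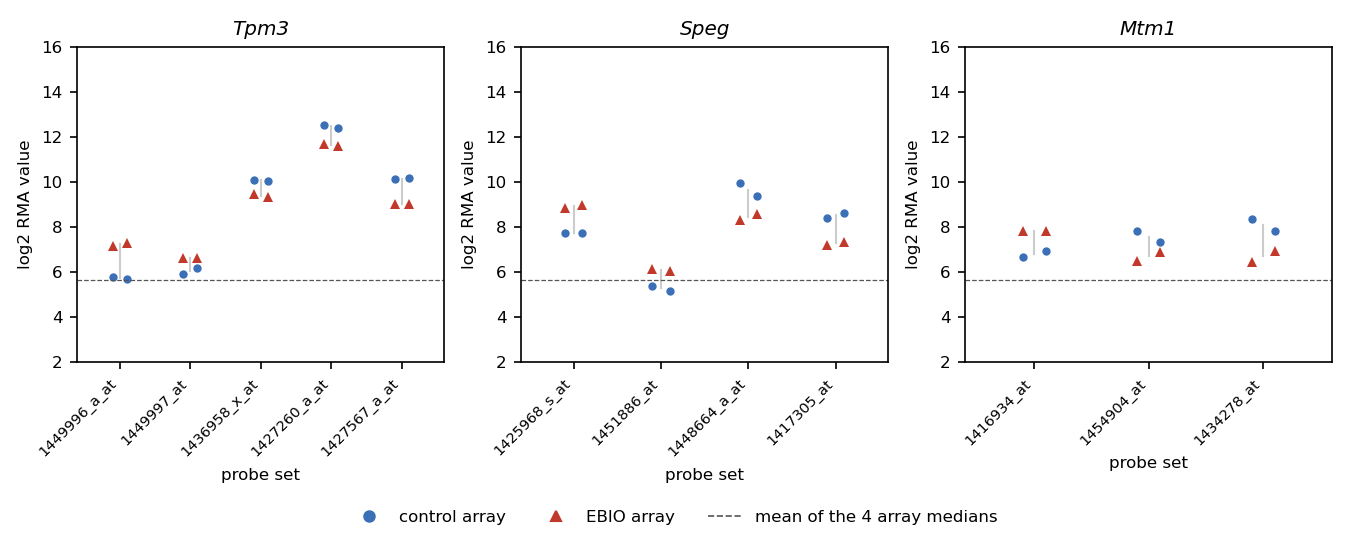
Log2 RMA value of each tested probe set of Tpm3, Speg and Mtm1 on each control array (circles) and each EBIO array (triangles), with the mean of the 4 array medians as a dashed line. In each gene at least 1 probe set is higher and at least 1 lower with EBIO, and the groups do not overlap in any of the 12 probe sets.

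The pathway of the aryl hydrocarbon receptor was also set against the ES cells, in a fit over all 10 arrays. The ES arrays of the 2 groups were matched by passage, and this fit did not pair them. It called the EBIO effect different between stages for 6236 genes, against 7270 with a block for replicate number. Cyp1a1 differed by 0.04 between EBIO-treated and untreated ES cells (adjusted p = 0.80), and the change in differentiated cells exceeded it by 4.68 (SE 0.18, adjusted p = 1.6e-08). Of all genes tested in that fit, 45.5% had an EBIO effect called different, in either direction, between the differentiated and the ES cells. Tiparp was lower with EBIO in ES cells (-0.79) and higher in differentiated cells. Nqo1 was lower in ES cells (-1.67), and its rise of 0.76 in differentiated cells was not called in this fit (limma adjusted p = 0.057). The 2 exposures differ in length, 3 against 10 days, and the dose is given only for the ES cells, so stage, time and dose cannot be told apart.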

How the data were processed

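RNA of 4 cultures of differentiated CGR8 cells, 2 per group, was compared on Affymetrix arrays of 45101 probe sets. The deposited values are log2 intensities that the authors made with RMA (background correction, quantile normalization and probe summary), per the submitters' processing notes; the version and chip description file are not given in the sources used here. RMA compresses low signals, and there are no detection calls. The arrays' number limits the precision.

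Probe sets were named through the platform annotation updated by RefSeq symbols: 34945 carried 1 symbol, 932 several and 9160 none, and 64 were controls. Each of 18193 genes was read from its brightest probe set, by the mean of all 10 arrays. Genes above the array median on at least 2 of the 4 arrays were fitted with limma 3.58.1 (R 4.3.3, lmFit and eBayes, 2 residual degrees of freedom), with Benjamini-Hochberg adjustment over all 12330 tested and a threshold of 0.05. Every adjusted p in the text is from limma. The fit was also run on simulated arrays with independent noise and a small share of changed genes. On the real arrays 66.0% of genes tested were called, so that run does not check these calls. A large change is called and at least 2-fold. The comparison with ES cells used all 10 arrays; whether both sets were normalized together is not given in the sources used here, and only differences within a set were compared.

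Replicate numbers were not used to pair the cultures. Same-numbered arrays deviated with a correlation of -0.09, which with 2 arrays per group cannot settle whether cultures were paired. Whether p-values reflect spread between cultures rests on the design text alone. Named were the 12 largest changes per direction among called genes without overlap between groups and with both means above the lowest array median. The 12 largest of such genes in no list were added per direction, and up to 4 per list and direction past 2-fold. Members with a defined role and all members of the aryl hydrocarbon receptor list were named too. Lists and members were chosen with earlier results of these data known. Promoter windows are those of RefSeq for GRCm38.p6. Alternatives changed the probe set rule, the filter, the arrays fitted, the variance model, the scaling, the pairing and the arrays kept.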

Additional observations from a re-analysis of the deposited data

Results flagged for a closer look

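The fit over all 10 arrays did not pair the ES arrays by passage. In it, the EBIO effect differed between differentiated and ES cells for 45.5% of all 13706 genes tested. The same held for 15 of the 16 genes examined. The first 10 had been chosen for their size in the differentiated cells, so their differences are a description. The difference (effect in differentiated cells minus effect in ES cells, log2) was 7.01 for Nppa, 6.40 for Ttn, 5.20 for Ryr2, 4.92 for Myl1 and 4.64 for Sphkap. It was -7.62 for Col1a2, -6.28 for Ccdc80, -6.08 for Serping1, -5.85 for Col1a1 and -5.68 for Lox. Ttn was lower with EBIO in ES cells (-1.30, limma adjusted p = 0.00016) and higher in differentiated cells, whereas Nppa differed by 0.05 in ES cells (limma adjusted p = 0.73).

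In the aryl hydrocarbon receptor list the difference was 4.68 for Cyp1a1, 2.44 for Nqo1, 1.82 for Tiparp, 1.22 for Cyp1b1 and -1.69 for Ahr. Ahr, the receptor, was higher with EBIO in ES cells (0.68, limma adjusted p = 0.014). Arnt gave 0.11 (SE 0.16, limma adjusted p = 0.63). EBIO was given for 3 days at 1 mM to ES cells and for 10 days at a dose the labels do not give to differentiated cells, so stage, time and dose cannot be told apart.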

How the results depend on the processing

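Of 354 named genes, 351 kept their direction and call under each alternative that tested them (261 of the 354 were tested with the 75th percentile filter, 335 with the mean of probe sets and 352 with the other probe set rule); Nqo1 (0.76), Shh (-1.003) and Trib3 (-1.51) kept their sign and lost the call with all 10 arrays in the fit. Of 87 list medians 14 changed sign under an alternative. With all 10 arrays 2624 genes were higher and 2972 lower, fewer than the 4110 and 4022 of the main fit. With a filter at the 75th percentile, which tests fewer genes, 3146 were higher and 2526 lower. Of these, 561 and 809 changed by at least 2-fold, and 1 gene kept opposite probe sets. Limma's test against a 2-fold change called 441 rises and 1091 falls. Leaving out 1 array gave 3379 to 3539 genes higher and 3539 to 3574 lower, 756 to 822 and 1524 to 1547 of them by at least 2-fold, and 2 to 3 genes with opposite probe sets. With the replicate block 3732 genes were higher and 3761 lower, 778 and 1533 by at least 2-fold; the labels share only a number. A crossed replicate block, chosen after seeing the data, gave 4075 and 4040. Centring arrays on their medians moved the median of all genes by 0.07, with 56.5% of calls higher, and cyclic loess by -0.09, with 41.8%, beside 50.5%. Dim signal limits sizes, most often of falls.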

Other observations

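Gene groups with few members above the filter held single large changes. Sall1, a zinc finger factor of kidney, limb and heart progenitors, measured 3.47 and 3.33 on the control arrays and 6.78 and 6.92 on the EBIO arrays, a difference of 3.45 (SE 0.09, adjusted p = 3.1e-06). Fabp4, a fatty acid carrier of fat cells and macrophages, measured 10.21 and 10.03 on the control arrays and 4.08 and 3.81 on the EBIO arrays, a difference of -6.17 (SE 0.12, adjusted p = 1.8e-06). Pf4, the platelet factor, fell by 4.70 and Aqp1, a water channel, by 4.13 on the log2 scale. Carbonic anhydrase and aquaporin genes were lower in 9 of 10 tested, with Aqp11 (0.84) the 1 that rose. Immediate early genes divided: Egr2 (1.21) and Egr1 (1.16) rose and Maff (-1.05) and Myc (-0.80) fell. The genes of integrin chains included Itgb2 (-3.30), of white blood cells, which fell, and Itga6 (1.08), a laminin receptor chain, which rose. T, B and NK cell genes were near absent from the test, with 3 of 21 above the filter and none called by limma.

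Some probe sets without a single gene symbol changed as much as the named genes. Probe set 1448554_s_at measured 10.01 and 9.75 on the control arrays and 14.24 and 14.31 on the EBIO arrays, a rise of 4.40, and 1420798_s_at rose by 3.51. Probe set 1419149_at fell by 4.15 and 1449632_s_at by 4.10 on the log2 scale. They stay unnamed because the annotation gives none or several symbols.

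The spike-in controls differed between arrays, and most poly-A controls differed between the groups. The hybridisation controls were highest on EBIO array 1, BioB-3 at 8.75 against 8.19 to 8.39 on the others. The poly-A controls of DapX, LysX and PheX were all lower on both EBIO arrays than on both control arrays. ThrX-3 and ThrX-M were too, but not ThrX-5. DapX-3 measured 10.95 and 11.03 on the control arrays and 10.62 and 10.71 on the EBIO arrays. PheX-M measured 7.88 and 8.01 on the control arrays and 7.48 and 7.53 on the EBIO arrays. The part of such differences in the results was not tested.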
